A study of Mus musculus with 22 samples.

Results

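Lung epithelial RNA of mice heterozygous for 2 engineered alleles, called Double here, was compared with that of wild-type mice (WT) at E18.5, an embryonic day shortly before birth. Every library that the labels place in these groups was taken, 3 per genotype and 6 of the 22 in the series, and all 13750 genes measured at E18.5 entered the comparison. The WT mice are labelled NANCI-+/+. Double mice carried 1 copy of NANCI-CreERT2:RFP, whose name joins CreERT2, a Cre recombinase switched on by tamoxifen, to red fluorescent protein (RFP), and 1 copy of Nkx2.1-GFP, whose name holds green fluorescent protein. Mice with Nkx2.1-GFP/+ alone (Nkx) and mice with NANCI-CreERT2:RFP on both chromosomes (NANCI), 3 libraries each, entered the same fit. The cells were pulled down on magnetic beads for the epithelial surface protein EpCAM, and the labels name no gate against other cells. Whether animals were pooled, and whether the replicates are separate animals, is not given, so the p-values speak of the spread of these libraries, which may be technical in part.

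NKX2-1 is a homeodomain transcription factor that specifies the lung and thyroid and later keeps alveolar type 2 cells producing surfactant, the lipid and protein film that lets the newborn lung inflate. NANCI is a long noncoding RNA made next to its gene. By its title, the study asked how this gene pair buffers Nkx2-1 expression. When NKX2-1 is lost from lung epithelium, cells are known to take up stomach- and gut-type programs, including mucus secretion.

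The values are log2 signals, quantile-normalized within the age, and a difference is Double minus WT on that scale ± the standard error from limma. A gene is said to have risen or fallen where the Benjamini-Hochberg adjusted p over all genes was under 0.05. Signals are not scaled for gene length, so levels are compared between libraries and not between genes. Read totals are not used here. Deeper libraries should show more distinct low signals: up to the median there were 209 to 241 of them per WT library and 218 to 284 per Double library. Each group held 1 library with a male pattern of Y-linked and Xist signal and 2 with a female pattern. Pearson correlations across genes, which are not independent replicates, were 0.947 to 0.977 within WT, 0.965 to 0.975 within Double and 0.91 to 0.95 between them.

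Of the 13750 genes, 981 rose (7.13%) and 1027 fell (7.47%), together 14.6%. The change was at least 1 on the log2 scale for 1075 genes (7.82%), 527 that rose (3.83%) and 548 that fell (3.99%). The median difference over all genes was 0.02. The 3 Double libraries lay wholly above or wholly below the 3 WT libraries for 3746 genes (27.2%). Fitted on these 6 libraries alone, 453 genes rose and 475 fell. Without WT replicate 1 the counts were 584 and 598, without Double replicate 2 they were 613 and 609, and without Double replicate 3 they were 645 and 685. In the libraries of female pattern alone, 2 per group, 57 rose and 27 fell. Of the genes named here, the calls of Foxa1, Lamp3, Slc34a2, Sftpc, Sftpb, Abca3, Pgc, Etv5, Tff2, Apob, Igfbp3, Igfbp4, Igf2bp1, Cdkn1a, Cdkn2b, Axin2, Dtx4, Hes1, Ptch1, Cdon, Epcam, Cd14, Ddit3, Nr4a2 and mt-Cytb ended in the fit of the 6 libraries alone.

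**Figure D1:**
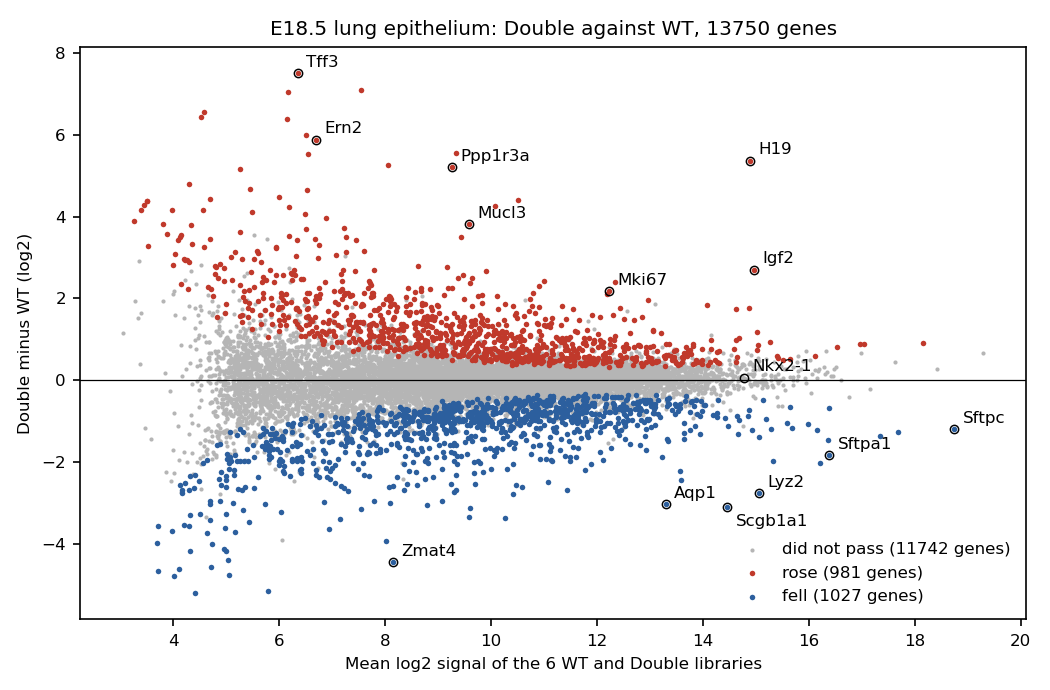
Each point is 1 of 13750 genes, with the mean log2 signal of the 6 WT and Double libraries on the x axis and the difference Double minus WT on the y axis. Red points are the 981 genes that rose, blue points the 1027 that fell and grey points the rest; rings mark the labelled genes, among them H19 and Igf2 at the upper right and Nkx2-1 at 0.06.

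Nkx2-1 itself did not pass the test. Its signal was 14.48, 14.84 and 14.93 in WT and 14.84, 14.69 and 14.9 in Double, so the groups overlapped, and the difference was 0.06 ± 0.14 (adjusted p = 0.842). Without WT replicate 1 it was -0.07. Whether reads of the Nkx2.1-GFP allele count toward this signal was not tested, so it does not check the label of that allele. Of 7 measured genes of the neighbourhood, Foxa1, a pioneer factor of endoderm, rose by 0.57 ± 0.13 (adjusted p = 0.013), and the call ended without WT replicate 1 (0.51; adjusted p = 0.0612). Mbip, the gene next to Nkx2-1, had 13.75, 13.58 and 14.09 in WT and 14.52, 14.16 and 14.27 in Double, with no overlap, but did not pass (0.51 ± 0.16; adjusted p = 0.0527). It passed without WT replicate 3 (0.65, adjusted p = 0.0126) and with the number of distinct low signals as a depth covariate (0.65, adjusted p = 0.0235). It also passed with the replicate number as a block (0.51, adjusted p = 0.0368). With libraries weighted by their fit (array weights) it had 0.53 (adjusted p = 0.000558). That setting gave convergence warnings and passed 6396 genes, beside 2008 in the main fit. Without WT replicate 3, 4 of the 7 rose. NANCI was not analysed here.

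A gene outside the gene lists, chosen after its values were seen, bears on the label of the other allele. Esr1 encodes estrogen receptor alpha, and CreERT2 is Cre joined to a mutated ligand-binding part of that receptor. Its signal was 4.15, 3.99 and 4.15 in WT and 6.89, 6.64 and 5.75 in Double, a rise of 2.33 ± 0.41 (adjusted p = 0.00247). It was 7.21, 7.55 and 6.6 in NANCI, which carry the allele as well, and 4.74, 4.45 and 3.81 in Nkx, which do not. The 6 libraries labelled with the allele thus lay above the 6 without it, and whether the reads came from the allele was not tested.

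Genes of the alveolar type 2 cell fell. Of 14 genes of surfactant and the lamellar body, the organelle that stores it, 10 fell, 1 rose and 3 did not pass, and the list's median was -1.19 beside 0.02 for all genes. Sftpa1, a surfactant collectin, had 17.35, 17.08 and 17.5 in WT and 16.11, 14.59 and 15.71 in Double. All Double libraries were below all WT libraries, and the difference was -1.84 ± 0.33 (adjusted p = 0.00271), or 3.58-fold lower. Napsa, a protease that processes surfactant protein B, had 14.97, 14.99 and 14.08 in WT and 12.77, 11.98 and 12.61 in Double and fell by 2.23 ± 0.26 (adjusted p = 0.000196). The lysozyme gene Lyz2 had 16.61, 16.67 and 16.02 in WT and 14.42, 12.91 and 13.71 in Double and fell by 2.76 ± 0.36 (adjusted p = 0.000394). Lamp3, a lamellar body membrane protein, fell by 1.22 ± 0.27, the phosphate transporter Slc34a2 fell by 1.26 ± 0.28 and Lpcat1, which makes surfactant phosphatidylcholine, fell by 1.18 ± 0.26. In bulk samples such as these, fewer cells of a type and less RNA per cell cannot be told apart.

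The calls of the hydrophobic surfactant proteins were less firm. Sftpc had 19.62, 19.62 and 18.78 in WT, where it was the highest signal of 2 libraries, and 18.26, 17.92 and 18.26 in Double. As 19.62 is the highest value of each E18.5 library, a larger Sftpc signal could not show in those 2. The difference was -1.2 ± 0.31 (adjusted p = 0.0207). Sftpb had 16.27, 16.52 and 15.54 in WT and 15.35, 14.6 and 15.26 in Double (-1.04 ± 0.28; adjusted p = 0.0261). Each of the calls of Sftpc and Sftpb ended without Double replicate 2, WT replicate 1 or WT replicate 2, with adjusted p of 0.0708 to 0.0842 for Sftpc and 0.0897 to 0.107 for Sftpb. Abca3, the lipid pump of the lamellar body, fell by 0.65 ± 0.2 (adjusted p = 0.0416), a call that ended without any 1 of these libraries or Double replicate 3 (adjusted p = 0.0727 to 0.155). Sftpd overlapped between the groups and did not pass (-0.82 ± 0.28; adjusted p = 0.0657), but passed without Double replicate 2 (-1.06; adjusted p = 0.034) or WT replicate 3 (-1.13; adjusted p = 0.00629). Pgc, which encodes pepsinogen C and is shared with stomach, went the other way, with 9.67, 9.65 and 9.21 in WT and 9.9, 11.67 and 11.37 in Double (1.46 ± 0.37; adjusted p = 0.0197). That call ended without Double replicate 2, Double replicate 3 or WT replicate 1 (adjusted p = 0.05 to 0.0835). Fitted on the 6 WT and Double libraries alone, 4 genes of the surfactant and lamellar body list fell.

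The promoters of Sftpa1 and Sftpb are shown because NKX2-1 is known to act on surfactant promoters. They are the 250 bases before the RefSeq transcription start on GRCm38.p6, 5′ to 3′ on the gene's strand, with capitals for CTCAAG, a core bound by NKX2-1, and for CAAGTG, a core of the wider NKX2 family, on either strand. The cores overlap in 4 bases, so 1 stretch can match both. Sftpa1 lies at chr14:41131538-41131787 on the plus strand and holds 1 match to CTCAAG and 2 to CAAGTG. Sftpb lies at chr6:72304360-72304609 on the plus strand and holds 2 matches to CTCAAG and 0 to CAAGTG.
Sftpa1: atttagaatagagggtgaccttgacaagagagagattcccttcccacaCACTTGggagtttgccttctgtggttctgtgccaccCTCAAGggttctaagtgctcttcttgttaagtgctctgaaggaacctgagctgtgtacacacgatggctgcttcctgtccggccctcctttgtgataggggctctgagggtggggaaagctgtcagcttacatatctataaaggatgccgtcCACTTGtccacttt
Sftpb: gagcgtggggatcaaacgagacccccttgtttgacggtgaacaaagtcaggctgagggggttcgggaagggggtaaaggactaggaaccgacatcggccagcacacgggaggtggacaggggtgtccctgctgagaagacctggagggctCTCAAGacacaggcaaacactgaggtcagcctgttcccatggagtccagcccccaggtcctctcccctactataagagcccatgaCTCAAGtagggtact
Among all 13176 such windows of measured genes, 12.4% held CTCAAG and 9.64% held CAAGTG. Of the 10 windows found for surfactant and lamellar body genes, 2 held CTCAAG and 3 held CAAGTG. Of the windows of genes that rose over the whole comparison 12% held CTCAAG and 9.56% held CAAGTG, and of those of genes that fell 12.3% and 12.9%. A match describes letters and not a bound site.

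Of 28 further type 2 genes, 18 fell and 0 rose, with a median of -1.12, and 10 did not pass. S100g, a calcium-binding protein, had 13.14, 13 and 12.17 in WT and 10.24, 9.68 and 10.37 in Double and fell by 2.68 ± 0.28 (adjusted p = 9.28e-05). Hc, complement component 5, fell from 16.44, 16.02 and 16.48 to 14.32, 14 and 14.72 (-1.97 ± 0.19; adjusted p = 6.59e-05). Acoxl, an acyl-CoA oxidase-like gene, fell by 3.37 ± 0.6 and the endocytic receptor Lrp2 fell by 2.57 ± 0.49. Double replicate 2 was the lowest of the 3 Double libraries in 10 of the 10 surfactant and lamellar body genes that fell and in 17 of the 18 further type 2 genes. Without it, 8 surfactant and lamellar body genes and 15 further type 2 genes fell.

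**Figure D2:**
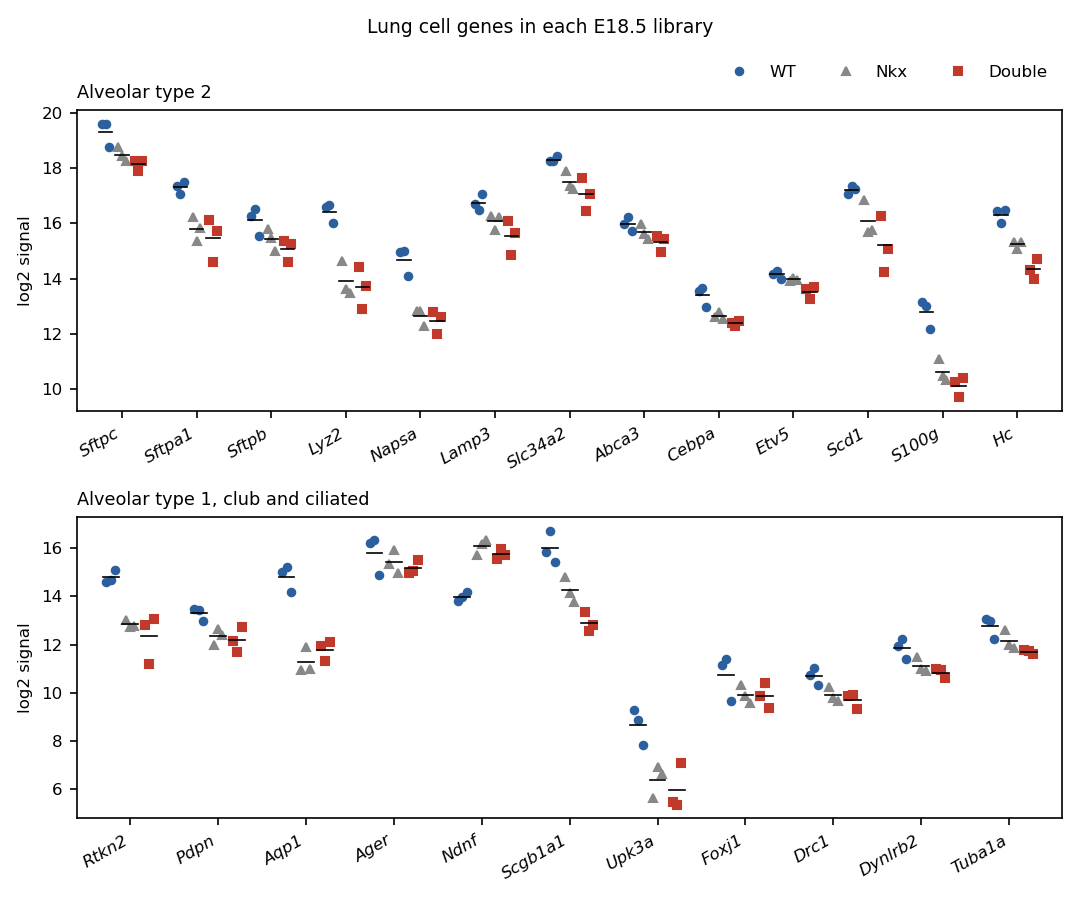
Log2 signal of 24 genes of lung cells in each WT (circle), Nkx (triangle) and Double (square) library at E18.5, with black bars for group means of 3 libraries. The alveolar type 2 genes of the upper panel are lower in Double than in WT; in the lower panel Ndnf is higher in Double and Ager and Foxj1 overlap.

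Some genes of lipid supply fell. Over all genes 7.47% fell and 7.13% rose. Of 42 genes of fatty acid and phospholipid synthesis, 9 fell and 3 rose (median -0.32), and without WT replicate 3 14 fell. Scd1, which desaturates stearate, had 17.08, 17.35 and 17.24 in WT and 16.27, 14.24 and 15.09 in Double and fell by 2.02 ± 0.42 (adjusted p = 0.00636). The desaturase Fads1 fell by 1.2 ± 0.26 and the lipid droplet coat gene Plin2 fell by 1.09 ± 0.19. Elovl6, which lengthens palmitate, went up, from 5.15, 4.29 and 5.48 to 6.36, 7.52 and 7.41 (2.12 ± 0.42; adjusted p = 0.00557). Of 33 genes of cholesterol synthesis and uptake, 8 fell and 0 rose (median -0.37). The cholesterol exporter Abca1 fell by 1.34 ± 0.27 and Npc1, which moves cholesterol out of lysosomes, fell by 1.06 ± 0.17. In the cholesterol list 2 fell without WT replicate 1 or Double replicate 2, 3 without WT replicate 2 or Double replicate 3, and 15 without WT replicate 3, and 2 fell in the fit of the 6 libraries alone.

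Glycogen is the store from which fetal type 2 cells build surfactant lipid. Of 41 genes of glycogen and glucose use, 6 fell and 2 rose (median -0.06), beside 7.47% and 7.13% of all genes. Ppp1r3c, a glycogen-targeting subunit of protein phosphatase 1, fell from 12.11, 12.25 and 12.33 to 10.95, 10.44 and 10.82 (-1.49 ± 0.18; adjusted p = 0.000213). Ppp1r3a, the subunit known from muscle, rose from 6.3, 5.9 and 7.79 to 12.37, 11.43 and 11.81, by 5.21 ± 0.44 (adjusted p = 4.09e-05). The 2 subunits of the same enzyme therefore changed in opposite directions. Without Double replicate 2, 1 rose. Phka2, of phosphorylase kinase, fell by 1.37 ± 0.18 and the glycogen-binding gene Stbd1 fell by 1.06 ± 0.21.

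Most alveolar type 1 genes, which mark the flat gas-exchange cell, did not pass. Of 35, 6 fell, 2 rose and 27 did not pass, beside 7.47% that fell and 7.13% that rose of all genes, and the median was -0.04; 1 rose without Double replicate 3 or WT replicate 1. Rtkn2 had 14.6, 14.67 and 15.11 in WT and 12.81, 11.2 and 13.05 in Double and fell by 2.44 ± 0.37 (adjusted p = 0.00111). Pdpn, podoplanin, fell by 1.1 ± 0.24 and Pmp22 fell by 1.12 ± 0.2. Ndnf went the other way with no overlap, from 13.83, 13.97 and 14.18 to 15.57, 15.99 and 15.72 (1.77 ± 0.17; adjusted p = 6.54e-05). Ager, the receptor most used as a type 1 marker, had 16.22, 16.36 and 14.88 in WT and 14.97, 15.07 and 15.51 in Double and did not pass (-0.63 ± 0.34; adjusted p = 0.262). Without WT replicate 3 it passed (-1.11; adjusted p = 0.00848); it was named after its values were seen.

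A minority of fluid-handling genes passed, in both directions. Of 33 ion and water transport genes, 6 fell and 3 rose (median -0.14), beside 7.47% and 7.13% of all genes. The water channel Aqp1 fell from 15.02, 15.24 and 14.18 to 11.93, 11.32 and 12.1 (-3.03 ± 0.31; adjusted p = 8.05e-05), or 8.15-fold. Scnn1b and Scnn1g, subunits of the epithelial sodium channel that clears lung liquid at birth, had -1.37 ± 0.28 and -1.03 ± 0.22 and both fell. Atp6v1b1, a proton pump subunit, rose from 8.23, 8.38 and 7.79 to 10.17, 11.41 and 9.59 (2.26 ± 0.39; adjusted p = 0.00227), and the potassium channel Kcnq1 rose by 1.15 ± 0.2.

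Most transcription factors of lung endoderm did not pass. Among 49 measured, 6 rose, 4 fell and 39 did not pass, with a median of 0.08. Of all genes 7.13% rose and 7.47% fell. Cebpa, which drives type 2 maturation, fell from 13.54, 13.65 and 12.97 to 12.38, 12.28 and 12.45 (-1.02 ± 0.17; adjusted p = 0.00195). Id2 fell by 0.83 ± 0.15, the FGF-responsive Etv5 fell by 0.63 ± 0.14 and Elf5 fell by 0.58 ± 0.11. Spdef, the master regulator of goblet cells, rose from 5.73, 6.95 and 5.48 to 7.86, 9.16 and 7.68, by 2.18 ± 0.44 (adjusted p = 0.00604). Ehf, an epithelial ETS factor, rose by 1.46 ± 0.25 and Klf5 by 0.87 ± 0.14. Sox2 and Sox9, markers of airway and distal tip progenitors, had -0.19 ± 0.25 (adjusted p = 0.702) and -0.52 ± 0.19 (adjusted p = 0.0939), and Sox9 passed without Double replicate 1 (-0.67; adjusted p = 0.0491). Foxa2 had -0.11 ± 0.15, Gata6 0.39 ± 0.13 and Yap1 0.07 ± 0.1, and none of these passed. The number that rose was 3 without WT replicate 1, and in the fit of the 6 libraries alone 3 rose and 3 fell.

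Airway secretory genes changed in both directions. Of 26, 8 rose and 4 fell (median 0.42), beside 7.13% and 7.47% of all genes. For 1 of the 26, all WT libraries were at their lowest value, so it had no room to fall. Scgb1a1, the main secretoglobin of club cells, fell from 15.87, 16.72 and 15.44 to 13.36, 12.57 and 12.8 (-3.1 ± 0.33; adjusted p = 0.000128), or 8.58-fold. The uroplakin gene Upk3a, which marks a subset of club cells, fell by 2.71 ± 0.55. Gsto1, a glutathione transferase, rose from 11.18, 11.19 and 11.07 to 13.29, 14.12 and 13.19, by 2.39 ± 0.22 (adjusted p = 4.94e-05). Muc5b, a gel-forming mucin, had 5.73, 8.88 and 9.2 in WT and 11.73, 12.74 and 12.13 in Double, a rise of 4.26 ± 0.89 (adjusted p = 0.00719). In Nkx it was 13.95, 10.66 and 11.5. In all 8 secretory genes that rose, Double replicate 2 was the highest Double library, and without it 5 rose.

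All 40 measured genes of the multiciliated cell had a negative difference, with a median of -0.80, and 15 fell. Drc1, of the dynein regulatory complex, had 10.74, 11.04 and 10.33 in WT and 9.85, 9.89 and 9.3 in Double (-1.02 ± 0.25; adjusted p = 0.0169). Tuba1a, an alpha-tubulin, fell by 1.06 ± 0.24 and Dynlrb2, a dynein light chain, fell by 1.03 ± 0.24. Foxj1, the ciliogenesis factor, overlapped between the groups (11.15, 11.38 and 9.65 in WT, 9.85, 10.42 and 9.37 in Double) and did not pass (-0.84 ± 0.43; adjusted p = 0.234). Without WT replicate 3 it passed (-1.38; adjusted p = 0.0156), as it did with the depth covariate (-1.36; adjusted p = 0.0405); it was named after its values were seen. The count of 15 was not firm: it was 4 without Double replicate 2, 2 without Double replicate 3, 4 without WT replicate 1, 5 without WT replicate 2 and 8 in the fit of the 6 libraries alone. Drc1 lost its call without Double replicate 3, WT replicate 1 or WT replicate 2 (adjusted p = 0.0599 to 0.0749), Dynlrb2 without Double replicate 3 (0.0552) and Tuba1a without WT replicate 1 (0.0565).

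The Drc1 promoter is shown as an example of an RFX motif, GTTGCC on either strand, which factors of ciliogenesis bind. It lies at chr5:30281143-30281392 on the plus strand, in the same build and window, with the match in capitals.
Drc1: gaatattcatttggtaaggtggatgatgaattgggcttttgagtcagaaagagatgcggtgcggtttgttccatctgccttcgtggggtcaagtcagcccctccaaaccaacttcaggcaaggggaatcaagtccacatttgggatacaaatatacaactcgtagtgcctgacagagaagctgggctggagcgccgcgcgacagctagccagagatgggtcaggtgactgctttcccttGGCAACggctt
Of 40 windows found for ciliated genes, 18 held GTTGCC (45%), beside 11% of the windows of measured genes.

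Genes of mucus-secreting goblet cells rose. Of 36 in the list 27 were measured, and of these 16 rose, 0 fell and 11 did not pass, with a median of 1.44. For 3 of the 27, all WT libraries were at their lowest value, so these had no room to fall. Tff3, a trefoil peptide secreted with mucin, had 3.12, 3.52 and 1.13 in WT, the last at that library's lowest value, and 9.83, 11.04 and 9.44 in Double. Fcgbp, a mucus-linking protein, went from 6.21, 7.52 and 5.93 to 12.09, 13.04 and 11.17, a rise of 5.55 ± 0.5 (adjusted p = 4.94e-05). Ern2, the stress sensor of mucous cells, went from 3.12, 3.99 and 4.15 to 9.31, 10.68 and 8.9, by 5.88 ± 0.46 (adjusted p = 2.66e-05). The groups were far apart in all 3 genes. Spink4, a protease inhibitor of goblet cells, rose by 5.27 ± 0.57. Gcnt3, which branches mucin sugars, the membrane mucin Muc13 and the trefoil gene Tff2 were at the lowest value in all WT libraries, so no fold is given, and had 7.06 to 8.39, 5.17 to 5.98 and 3.35 to 8.13 in Double. Foxa3 had 4.97, 5.39 and 5.48 in WT and 6.3, 7.89 and 5.98 in Double and did not pass (1.44 ± 0.51; adjusted p = 0.079). Double replicate 2 was the highest Double library in 16 of the 16 that rose, and without it 14 rose.

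**Figure D3:**
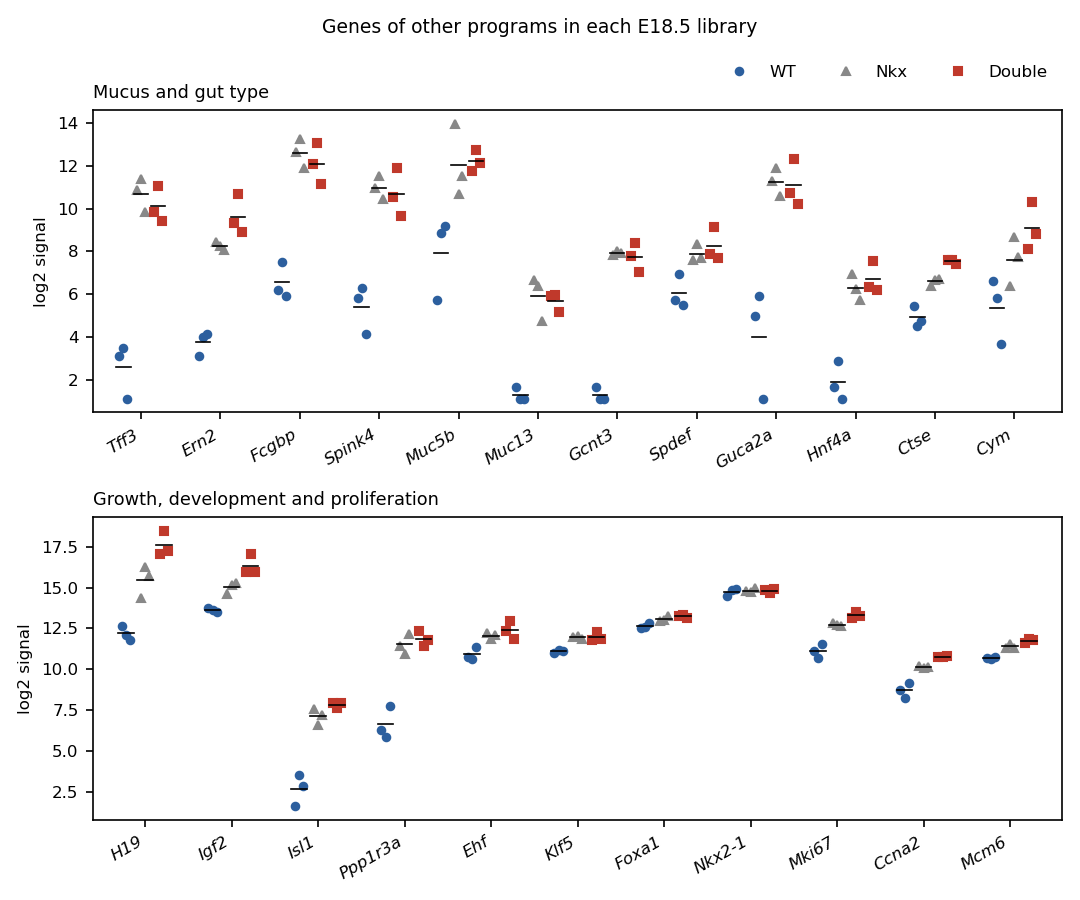
Log2 signal of 23 genes in each WT (circle), Nkx (triangle) and Double (square) library at E18.5, with black bars for group means of 3 libraries; values near 1 are a library's lowest. Double libraries stand above WT for the mucus and gut genes of the upper panel and for the genes of the lower panel except Nkx2-1, whose difference was 0.06.

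Stomach and gut genes were present in part. Of 49 in the list 20 were measured, and of these 9 rose and 2 fell (median 0.56), beside 7.13% and 7.47% of all genes. For 1 of the 20, all WT libraries were at their lowest value, so it had no room to fall. Hnf4a, a gut and liver transcription factor, had 1.66, 2.89 and 1.13 in WT, with 2 libraries at their lowest value, and 6.36, 7.55 and 6.18 in Double, a rise of 4.8 ± 0.68 (adjusted p = 0.000643). Guca2a, the gut peptide guanylin, had 4.97, 5.9 and 1.13 in WT and 10.74, 12.33 and 10.22 in Double (7.09 ± 0.96; adjusted p = 0.000476). Ctse, the gastric protease cathepsin E, rose from 5.45, 4.54 and 4.77 to 7.61, 7.59 and 7.41 (2.62 ± 0.3; adjusted p = 0.000169). Cym, chymosin, rose by 3.71 ± 0.75. The intestinal factors Cdx1 and Cdx2, the stomach genes Gkn1 and Tff1 and the villus gene Vil1 are among those not measured. Without genes of a mean under 5, 5 rose.

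Of 32 plasma protein genes of liver type 14 were measured. Among these, 4 rose and 2 fell (median 0.41), beside 7.13% and 7.47% of all genes. Albumin, Alb, rose from 7.42, 7.74 and 8.08 to 9.67, 10 and 9.21, by 1.88 ± 0.22 (adjusted p = 0.000203), and ceruloplasmin, Cp, by 1.77 ± 0.36. Apob fell from 5.73, 5.39 and 7.4 to 4.09, 3.52 and 3.84 (-2.35 ± 0.55; adjusted p = 0.0135), a call that ended without Double replicate 2 (adjusted p = 0.0506). In this list 1 fell without that library and 4 without WT replicate 3. Xenobiotic and redox genes, many of them airway enzymes, rose in 7 of 41 and fell in 6 (median -0.01), beside 7.13% and 7.47% of all genes. Among these 41, 2 fell without WT replicate 1 or Double replicate 3, and 3 without WT replicate 2 or Double replicate 2. The fit of the 6 libraries alone had 2 that fell. Ces1c, a carboxylesterase, had 3.12, 4.54 and 3.7 in WT and 10.26, 8.37 and 9.31 in Double (5.53 ± 0.71; adjusted p = 0.000333). Adh7, a retinol dehydrogenase of stomach epithelium, rose by 3.42 ± 0.43 and Nqo1, an NRF2 target, by 1.76 ± 0.23.

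Squamous and basal genes rose in part. Of 32 in the list 17 were measured, with 9 that rose and 1 that fell (median 0.63), beside 7.13% and 7.47% of all genes. Pkp1, a desmosome plaque protein of stratified epithelium, rose from 3.12, 4.54 and 2.89 to 8.96, 10.27 and 9.29, by 5.99 ± 0.44 (adjusted p = 1.82e-05). Sprr1a, a cornified envelope precursor, had 1.66, 3.99 and 3.7 in WT, the first at its library's lowest value, and 7.56, 7.92 and 7.89 in Double. Krt17 and Krt4, keratins of such epithelia, rose by 3.01 ± 0.58 and 3.05 ± 0.6. Ivl, involucrin, fell from 7.76, 7.33 and 7.85 to 4.58, 3.52 and 5.17 (-3.22 ± 0.39; adjusted p = 0.000235). The basal cell factor Trp63 and the keratins Krt5 and Krt14 are not among the measured genes.

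H19 and Igf2, neighbouring imprinted genes that share an enhancer region, rose from levels that were already high. H19, a noncoding RNA of fetal tissue, went from 12.67, 12.12 and 11.81 to 17.03, 18.45 and 17.24, by 5.37 ± 0.45 (adjusted p = 4.09e-05), or 41.5-fold. Igf2, a fetal growth factor, went from 13.73, 13.65 and 13.48 to 15.95, 17.03 and 15.98, by 2.7 ± 0.26 (adjusted p = 6.47e-05), or 6.5-fold. In Nkx, H19 had 14.37, 16.25 and 15.69 and Igf2 had 14.62, 15.15 and 15.27, between WT and Double. Of the 26 measured IGF axis and imprinted genes, 5 rose and 5 fell (median 0.38), beside 7.13% and 7.47% of all genes. Igfbp6, which binds IGF2, fell by 1.98 ± 0.35. Igfbp4 rose by 1.79 ± 0.49 and Igfbp3 by 1.6 ± 0.43, and both calls ended without WT replicate 1, Double replicate 2 or Double replicate 3, that of Igfbp4 also without WT replicate 3 and that of Igfbp3 also without WT replicate 2, with adjusted p of 0.0585 to 0.111 for Igfbp4 and 0.0593 to 0.113 for Igfbp3. Without WT replicate 1 or Double replicate 3, 3 genes of this list rose and 3 fell, and without WT replicate 3, 8 rose and 3 fell; without Double replicate 2, 2 fell, and without WT replicate 2, 3 fell. In the fit of the 6 libraries alone, 3 rose and 2 fell. Igf2bp1, which binds IGF2 mRNA and is listed with the transcription factors, rose by 0.54 ± 0.14 (adjusted p = 0.0236), and that call ended without WT replicate 1, Double replicate 2 or Double replicate 3 (adjusted p = 0.0541 to 0.103).

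Genes of cell division rose together. Of 60 measured genes of mitosis, 48 rose, 0 fell and 12 did not pass, with 59 above 0 and a median of 1.32. Mki67, the proliferation antigen, had 11.13, 10.71 and 11.58 in WT and 13.12, 13.51 and 13.28 in Double, a rise of 2.17 ± 0.22 (adjusted p = 8.62e-05), or 4.49-fold. Ccna2, cyclin A2, went from 8.75, 8.24 and 9.16 to 10.76, 10.78 and 10.79 (2.06 ± 0.2; adjusted p = 6.98e-05). The kinases Aurkb, Plk1 and Ttk rose by 2.05 ± 0.22, 1.59 ± 0.27 and 1.82 ± 0.32. The spindle genes Nusap1 and Cenpf rose by 2.26 ± 0.26 and 1.85 ± 0.3, and Foxm1, the transcription factor of late cell cycle genes, by 1.53 ± 0.24. Pttg1, the separase inhibitor securin, was the member below 0 (-0.43 ± 0.21; adjusted p = 0.218), and it passed without WT replicate 3 (-0.66; adjusted p = 0.0326). Over the libraries the list mean was 8.65, 8.39 and 8.82 in WT and 9.76, 9.95 and 9.89 in Double, with 9.48, 9.48 and 9.39 in Nkx. With any 1 of the 6 libraries left out, 42 to 47 rose, and 1 fell without WT replicate 3.

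DNA replication genes moved the same way with smaller changes. Of 46, 20 rose, 0 fell and 26 did not pass (median 0.62). Among the helicase subunits, Mcm5 rose by 1.36 ± 0.2, Mcm3 by 1.14 ± 0.18, Mcm6 by 1.06 ± 0.12 and Mcm4 by 0.98 ± 0.17. Mcm6 had 10.72, 10.63 and 10.74 in WT and 11.62, 11.88 and 11.77 in Double (adjusted p = 0.000129). The licensing factor Cdc6 rose by 1.46 ± 0.22, the ligase Lig1 by 1.39 ± 0.15 and Uhrf1, which maintains DNA methylation, by 1.4 ± 0.2. Pcna, the sliding clamp, overlapped and did not pass (0.11 ± 0.13; adjusted p = 0.639), nor did the licensing factor Cdt1 (0.47 ± 0.26; adjusted p = 0.277). The count was 12 without Double replicate 3 and 11 in the fit of the 6 libraries alone.

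Promoters of Mki67, Ube2c and Cdk1 from the mitosis list and of Cdc6 from the replication list are shown because promoters of these classes are known to share short elements. Capitals mark TTTGAA, the cell cycle genes homology region bound by MuvB complexes, and CCAAT, bound by NF-Y, on either strand; in Cdc6 they mark TTTCCCGC, an E2F site. The window and build are as above. Mki67 is at chr7:135716380-135716629 on the minus strand, Ube2c at chr2:164769679-164769928 on the plus strand, Cdk1 at chr10:69352913-69353162 on the minus strand and Cdc6 at chr11:98907901-98908150 on the plus strand.
Mki67: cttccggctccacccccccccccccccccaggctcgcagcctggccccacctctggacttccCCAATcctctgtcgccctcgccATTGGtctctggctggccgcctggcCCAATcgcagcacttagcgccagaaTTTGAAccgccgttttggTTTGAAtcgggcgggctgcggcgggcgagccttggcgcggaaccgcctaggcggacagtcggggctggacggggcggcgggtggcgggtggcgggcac
Ube2c: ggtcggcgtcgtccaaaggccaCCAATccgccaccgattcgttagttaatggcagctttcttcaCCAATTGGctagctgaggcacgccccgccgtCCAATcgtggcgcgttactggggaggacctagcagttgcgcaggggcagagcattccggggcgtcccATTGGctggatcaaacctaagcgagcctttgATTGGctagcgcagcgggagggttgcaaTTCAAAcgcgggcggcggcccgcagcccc
Cdk1: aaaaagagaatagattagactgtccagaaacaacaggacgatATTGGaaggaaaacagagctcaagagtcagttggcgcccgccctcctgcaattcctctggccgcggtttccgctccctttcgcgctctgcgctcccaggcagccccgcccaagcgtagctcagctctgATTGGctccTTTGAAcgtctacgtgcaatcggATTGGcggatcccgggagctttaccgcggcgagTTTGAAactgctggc
Cdc6: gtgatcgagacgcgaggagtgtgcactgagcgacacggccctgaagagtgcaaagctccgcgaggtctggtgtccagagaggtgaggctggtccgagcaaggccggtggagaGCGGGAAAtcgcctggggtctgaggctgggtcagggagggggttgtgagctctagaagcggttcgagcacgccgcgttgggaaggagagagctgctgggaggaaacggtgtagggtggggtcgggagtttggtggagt
Mki67 holds 2 matches to TTTGAA and 3 to CCAAT, Ube2c 1 and 6, and Cdk1 2 and 3. Of 53 windows found for mitosis genes, 39 held CCAAT (73.6%) and 18 held TTTGAA (34%), beside 34.8% and 10.8% of the windows of measured genes. With the 50 bases after the start added, TTTGAA was in 67.9% of the mitosis windows and 12.1% of those of measured genes. TTTCCCGC was in 4 of 45 windows of replication genes (8.89%), 0 of the mitosis windows and 1.62% of those of measured genes.

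Most brakes of the cell cycle did not pass. In a list of 30 cell cycle inhibitors, their partners and p53 targets, 3 fell and 3 rose (median 0.01), beside 7.47% and 7.13% of all genes. Gadd45a, a growth arrest gene, fell from 9.36, 9.44 and 9.57 to 8.2, 7.92 and 8.39 (-1.29 ± 0.19; adjusted p = 0.000894). Ccnd2, cyclin D2, listed here as a partner of these inhibitors, rose from 11.92, 11.58 and 11.82 to 13.34, 13.47 and 12.97, by 1.49 ± 0.18 (adjusted p = 0.000206). The inhibitor Cdkn1a, whose groups overlapped, fell by 0.78 ± 0.23 (adjusted p = 0.0368), a call that ended without Double replicate 2, Double replicate 3, WT replicate 1 or WT replicate 2 (adjusted p = 0.101 to 0.142). The inhibitor Cdkn2b fell by 0.76 ± 0.17, and its call ended without Double replicate 2 (adjusted p = 0.0502). Without that library 1 gene of the list fell, and without WT replicate 3, 5 fell. In the fit of the 6 libraries alone, 1 rose and 1 fell.

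**Figure D4:**
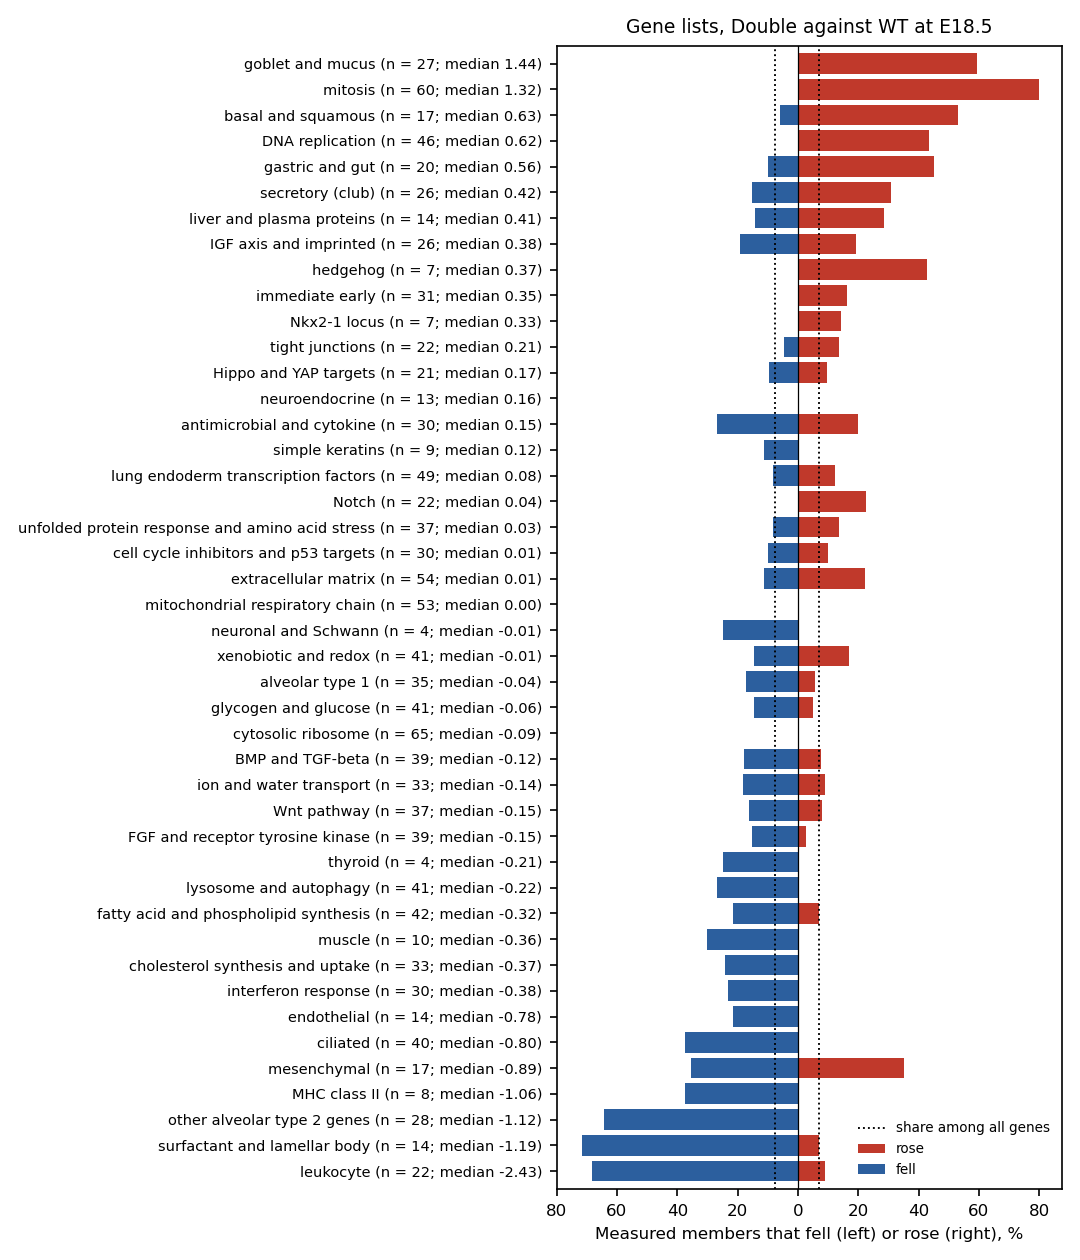
For each of 44 gene lists with a measured member, the bar to the right is the percentage of measured members that rose in Double against WT and the bar to the left the percentage that fell; the number measured and the median log2 difference stand beside the name. Dotted lines are the shares among all genes, 7.13% that rose and 7.47% that fell; mitosis has 48 of 60 to the right and surfactant and lamellar body 10 of 14 to the left.

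In the signalling lists most members did not pass; over all genes 7.13% rose and 7.47% fell. Of 37 Wnt pathway genes, 6 fell and 3 rose (median -0.15). Wnt3a, a ligand, fell from 9.79, 10.21 and 9.1 to 7.24, 6.97 and 6.85 (-2.68 ± 0.31; adjusted p = 0.000174). Axin2, a target and feedback inhibitor, fell by 0.82 ± 0.16, and Wif1, a secreted Wnt inhibitor, rose by 1.42 ± 0.28. Without Double replicate 2 or WT replicate 1, 2 Wnt genes fell; 1 rose without WT replicate 1 and 5 without WT replicate 3. Of 39 genes of FGF and receptor tyrosine kinase signalling, 6 fell and 1 rose (median -0.15). Dusp4, a phosphatase induced by ERK, fell from 10.39, 10.24 and 10.86 to 8.44, 7.14 and 8.97 (-2.31 ± 0.37; adjusted p = 0.00167), and its list had 2 that fell without Double replicate 2 or WT replicate 1. In that list 0 rose without Double replicate 2, Double replicate 3 or WT replicate 1, 2 without WT replicate 2 and 3 without WT replicate 3. Of 39 BMP and TGF-beta genes, 7 fell and 3 rose (median -0.12). The ligand Bmp2 fell by 1.26 ± 0.28 and the decoy receptor Bambi fell by 1.02 ± 0.19, while Ltbp2, a matrix protein of this family, rose by 1.6 ± 0.28. Without Double replicate 3 or WT replicate 1, 4 of the BMP and TGF-beta genes fell, and without WT replicate 2 or WT replicate 3, 5 rose.

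In the Notch list, 5 of 22 rose and 0 fell (median 0.04), beside 7.13% and 7.47% of all genes. The receptor Notch3 rose from 8.54, 9.12 and 8.76 to 9.91, 10.46 and 10.03, by 1.32 ± 0.19 (adjusted p = 0.000738), and Dtx4 by 1.13 ± 0.24. The target Hes1 had 0.53 ± 0.13 (adjusted p = 0.0164), and its call ended without Double replicate 1 or Double replicate 2 (adjusted p = 0.0509 and 0.0665). Without Double replicate 1, 3 rose and 1 fell. Of 7 measured hedgehog genes, 3 rose and 0 fell: the receptor and target Ptch1 by 0.62 ± 0.13 and the co-receptors Cdon by 0.76 ± 0.15 and Boc by 2.23 ± 0.31. Of 21 Hippo and YAP genes, 2 rose and 2 fell, and 1 rose without WT replicate 1, WT replicate 2 or Double replicate 3. In the fit of the 6 libraries alone, 1 Wnt gene rose and 1 fell, 0 FGF genes rose and 1 fell, 3 BMP and TGF-beta genes fell, and 1 gene rose in each of the Notch, hedgehog and Hippo lists. Tead2, a partner of YAP, rose by 1.08 ± 0.2, and Nt5e and F3 fell (-1.86 ± 0.3 and -0.97 ± 0.19).

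Cell surface and matrix genes included large single changes. Over all genes 7.13% rose and 7.47% fell. Of 54 extracellular matrix genes, 12 rose and 6 fell (median 0.01). Spp1, osteopontin, had 3.12, 1.13 and 3.7 in WT, with WT replicate 2 at its lowest value, and 9.68, 9.69 and 9.69 in Double. Loxl2, a collagen crosslinker, rose from 4.97, 4.54 and 5.34 to 8.41, 8.56 and 8.24, by 3.45 ± 0.45 (adjusted p = 0.000367). Ntn1, netrin 1, fell from 8.32, 8.61 and 8.73 to 5.57, 6.05 and 6.1 (-2.65 ± 0.33; adjusted p = 0.000292). Of 22 tight junction and adhesion genes, 3 rose and 1 fell (median 0.21). Epcam, on which the cells were pulled down, had 13.23, 13.26 and 12.8 in WT and 13.46, 14 and 13.57 in Double (0.58 ± 0.18; adjusted p = 0.0484), and its call ended without any 1 of the 6 libraries but Double replicate 1 (adjusted p = 0.0525 to 0.181). Without WT replicate 1, 0 genes of this list rose, and without WT replicate 2, Double replicate 2 or Double replicate 3, 1 rose; 0 fell without WT replicate 1, Double replicate 1 or Double replicate 3, and 2 fell without WT replicate 3. In the list of 9 simple keratins and other filaments, the mesenchymal filament gene Vim was the 1 that fell (-0.9 ± 0.21). There 0 rose, but 1 rose without Double replicate 1 and 2 without WT replicate 2.

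Markers of leukocytes, which a pulldown on EpCAM does not select, fell in Double. Of 22 measured leukocyte markers, 15 fell and 2 rose (median -2.43). Their mean signal ran from 7.13 to 7.48 over WT libraries and from 5.04 to 5.64 over Double libraries. In Nkx it ran from 4.74 to 5.83 and in NANCI from 6.73 to 6.83. The macrophage genes Mrc1, a mannose receptor, and Cx3cr1, a chemokine receptor, show it. Mrc1 went from 8.86, 8.39 and 9.04 to 5.25, 5.34 and 4.77 (-3.64 ± 0.52; adjusted p = 0.000736), and Cx3cr1 from 7.11, 7.39 and 6.76 to 1.92, 4.01 and 2.76. Adgre1, a surface receptor of macrophages, was at its lowest value in 1 Double library and had 5.73 to 6.79 in WT. The markers C1qa, Itgam and Cd3e are not among the measured genes. Cd14 and Plac8, which some epithelial cells express too, rose by 0.94 ± 0.23 and 2.41 ± 0.65; they were named after their values were seen, as the 2 members that rose. Both calls ended without Double replicate 2, and that of Plac8 also without WT replicate 1 (adjusted p = 0.0703 for Cd14, 0.116 and 0.0771 for Plac8). The part of these cells in the changes described above and below was not tested.

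Antigen presentation and lysosome genes, which macrophages and type 2 cells both use, had more that fell than rose. Of all genes 7.47% fell and 7.13% rose. In the MHC class II list 3 of 8 fell, 0 rose and the median was -1.06, and in the lysosome and autophagy list 11 of 41 fell and 0 rose (median -0.22). Lipa, the lysosomal acid lipase, fell from 12.55, 12.37 and 12.38 to 10.67, 10.3 and 10.66 (-1.89 ± 0.15; adjusted p = 3.17e-05). The class II gene H2-Aa fell by 1.64 ± 0.29 and the cathepsin gene Ctsc fell by 1.21 ± 0.14. Ctss, a cathepsin of antigen-presenting cells, had 7.63, 7.42 and 7.28 in WT and 1.92, 4.97 and 1.13 in Double. The lysosome count was 6 without WT replicate 1 and 7 without WT replicate 2 or Double replicate 3, and the class II count was 6 without WT replicate 3. In the fit of the 6 libraries alone the lysosome count was 6.

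Markers of other cell types were divided, in small lists, beside 7.47% of all genes that fell and 7.13% that rose. Of 14 endothelial markers 3 fell and 0 rose (median -0.78); Kdr, which type 1 precursors also express, fell by 0.88 ± 0.18, and Esam fell by 1.51 ± 0.25. The endothelial list mean was 7.03 to 7.63 in WT and 6.2 to 7.26 in Double. Of 17 mesenchymal and mesothelial markers 6 fell and 6 rose (median -0.89), with a list mean of 7.15 to 7.88 in WT and 7.18 to 7.37 in Double. Col3a1, a fibroblast collagen, fell by 1.97 ± 0.52, while the mesothelial uroplakin Upk3b rose from 4.97, 4.29 and 3.7 to 6.47, 8.03 and 8.17 (3.24 ± 0.53; adjusted p = 0.00167). The call of Col3a1 ended without WT replicate 2 or any 1 Double library (adjusted p = 0.0536 to 0.0891), and 3 mesenchymal genes fell without Double replicate 2 or WT replicate 2. Of 10 muscle genes 3 fell, among them Myom2 of the sarcomere, which fell by 4.41 ± 0.75, with 1 Double library at its lowest value; without Double replicate 2 or Double replicate 3, 1 fell, and 1 rose without Double replicate 2. Of 4 measured neuronal and Schwann markers and 4 thyroid genes, 1 of each fell and 0 rose. The neuronal count was 0 with any 1 of the 6 libraries but Double replicate 3 left out, and the thyroid count was 0 with any 1 but Double replicate 1 left out. Of 15 erythroid markers, hemoglobins included, 0 were measured.

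Some defence genes fell and others rose, beside 7.47% of all genes that fell and 7.13% that rose. Of 30 interferon response genes 7 fell and 0 rose (median -0.38), 4 fell without WT replicate 1 or Double replicate 3, and 1 rose without WT replicate 3. Usp18, an interferon feedback gene, fell from 10.35, 10.56 and 10 to 8.44, 7.99 and 8.51 (-1.99 ± 0.23; adjusted p = 0.000163), and Ifi27 fell by 1.68 ± 0.28. Of 30 antimicrobial and cytokine genes 8 fell and 6 rose (median 0.15). Csf2, which encodes the growth factor GM-CSF, fell from 9.55, 9.32 and 9.25 to 7.86, 6.7 and 7.41 (-2.05 ± 0.29; adjusted p = 0.000708). The inducible nitric oxide synthase Nos2 fell by 2.51 ± 0.43, and Il18 rose by 1.89 ± 0.36. In the fit of the 6 libraries alone, 4 interferon genes fell, and 5 antimicrobial and cytokine genes fell and 2 rose.

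Most stress genes did not pass. Of 37 genes of the unfolded protein and amino acid response, 5 rose and 3 fell (median 0.03), beside 7.13% and 7.47% of all genes. Phgdh, of serine synthesis, rose by 1.84 ± 0.34, and the stress factor Ddit3 fell by 0.81 ± 0.19 (adjusted p = 0.015). In this list 3 rose without WT replicate 1, WT replicate 2, Double replicate 2 or Double replicate 3; 1 fell without WT replicate 1 or Double replicate 2, and 7 without WT replicate 3. Of 31 immediate early genes 5 rose and 0 fell (median 0.35). Egr2 rose by 1.41 ± 0.32 and Nr4a2 by 1.06 ± 0.23. Without WT replicate 1 the number was 2, and without Double replicate 1 it was 3; 1 fell without WT replicate 3. In the fit of the 6 libraries alone, 2 stress genes rose and 1 fell, and 2 immediate early genes rose. By limma, 0 of 65 cytosolic ribosomal protein genes, 0 of 53 genes of the mitochondrial respiratory chain and 0 of 13 neuroendocrine genes passed, with medians of -0.09, 0.0 and 0.16. At an unadjusted p under 0.05 the numbers were 0, 1 and 5. Without WT replicate 3, 6 ribosomal protein, 3 respiratory chain and 1 neuroendocrine genes fell.

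Transcripts made inside mitochondria are not in that respiratory chain list. Of the 15 measured on the mitochondrial chromosome 4 rose and 1 fell, beside 7.13% and 7.47% of all genes. Of those that passed, 4 are among the passing genes with the highest mean signal, and the other was chosen after its values were seen. mt-Cytb, cytochrome b, had 17.67, 17.5 and 17.92 in WT and 18.78, 18.26 and 18.78 in Double (0.91 ± 0.22; adjusted p = 0.015). Quantile normalization gives a rank the same value in each library, and Sftpc took the values 18.78, 18.26 and 17.92 too. A signal this high can thus rise by rank where more abundant genes fall, and whether it did so here was not tested. The complex I gene mt-Nd4 rose by 0.82 ± 0.18. mt-Rnr2, the large ribosomal RNA, fell from 15.46, 15 and 15.4 to 14.39, 14.45 and 14.39 (-0.88 ± 0.22; adjusted p = 0.0204). The calls of mt-Cytb and mt-Rnr2 ended without WT replicate 1 or Double replicate 3, that of mt-Cytb also without WT replicate 2 or Double replicate 1 and that of mt-Rnr2 without Double replicate 2, with adjusted p of 0.0502 to 0.0646 for mt-Cytb and 0.0505 to 0.0838 for mt-Rnr2.

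Some of the largest changes lie outside these lists. Isl1, a LIM homeodomain factor of neurons, heart and pancreas, rose from 1.66, 3.52 and 2.89 to 7.95, 7.65 and 7.96, with 1 WT library at its lowest value. Syt8, a synaptotagmin, had 1.66, 3.52 and 3.7 in WT, the first at its library's lowest value, and 8.56, 9.89 and 9.57 in Double. Ccl9, a chemokine, rose by 4.65 ± 0.54. In the other direction Zmat4, a zinc finger gene, fell from 10.51, 9.76 and 10.88 to 6.01, 4.97 and 6.79 (-4.46 ± 0.43; adjusted p = 6.54e-05). Sgpp2, a sphingosine phosphate phosphatase, fell from 11.16, 11.38 and 11.23 to 8.29, 7.61 and 7.79 (-3.36 ± 0.29; adjusted p = 4.09e-05). Frem1, of the basement membrane, fell by 3.15 ± 0.29 and the ectonucleotidase Entpd1 fell by 3.12 ± 0.31.

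**Figure D5:**
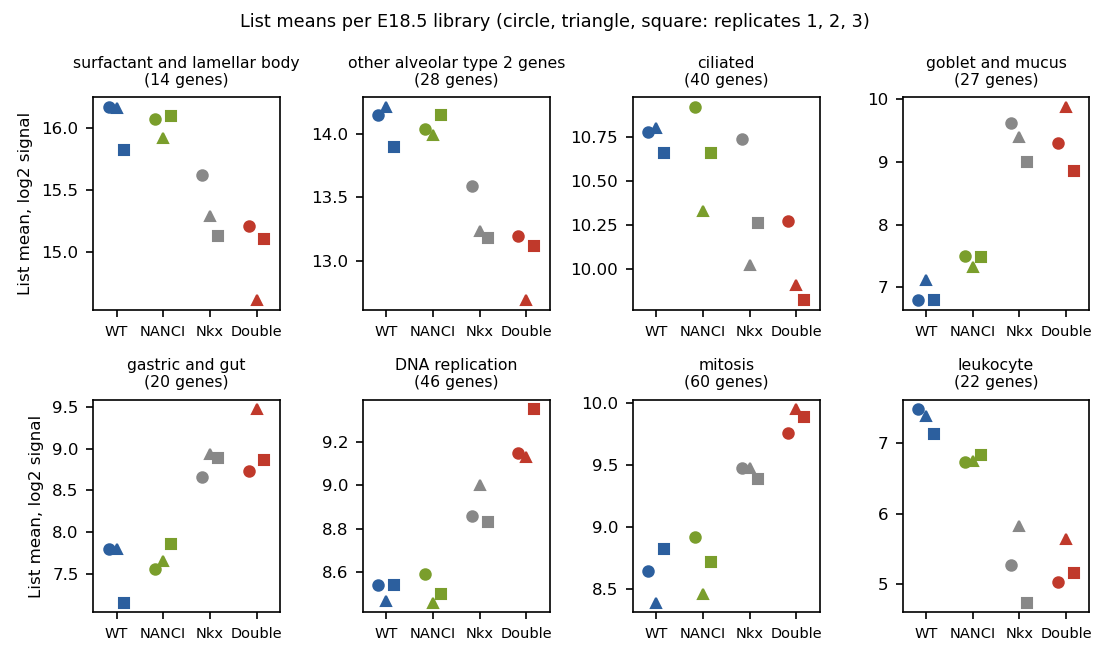
Mean log2 signal over the measured members of 8 gene lists in each E18.5 library, by genotype on the x axis, with a circle, triangle and square for replicates 1, 2 and 3; each panel has its own y range. For mitosis the WT libraries lie at 8.39 to 8.82 and the Double libraries at 9.76 to 9.95; for leukocyte markers they lie at 7.13 to 7.48 and 5.04 to 5.64.

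Double mice differ from Nkx mice by the added copy of NANCI-CreERT2:RFP, and this difference was tested too. Of 13750 genes 1 passed (0.00727%), and 559 had an unadjusted p under 0.05 (4.07%). Mucl3, a mucin-like gene, had 10.95, 11.83 and 11.69 in Double and 9.21, 9.68 and 9.05 in Nkx, a difference of 2.18 ± 0.24 (adjusted p = 0.0127), beside 7.53, 7.93 and 7.56 in WT. Its call ended without Nkx replicate 1, Nkx replicate 3, Double replicate 2 or Double replicate 3 (adjusted p = 0.0793 to 0.164) and in the fit of the 6 Double and Nkx libraries alone (adjusted p = 0.0658). The next genes by p, named after their values were seen, were Spp1 with 4.92, 5.45 and 6.06 in Nkx (4.21 ± 0.62; adjusted p = 0.103) and Syt8 with 6.11, 5.45 and 5.63 (3.61 ± 0.56; adjusted p = 0.117). In both, all Double libraries lay above all Nkx libraries, and both passed in that fit (adjusted p = 0.00271 and 0.0285), as did the pseudogene Gm13394 (-6.23; adjusted p = 7.92e-05, beside 0.443 over all 12 libraries). For H19 the difference was 2.14 ± 0.45 (adjusted p = 0.419), for Igf2 1.3 ± 0.26 (adjusted p = 0.321), for Scgb1a1 -1.34 ± 0.33 (adjusted p = 0.57) and for Mki67 0.56 ± 0.22 (adjusted p = 1). With the replicate number as a block, Mucl3 was again the 1 gene that passed. A p that misses the threshold does not show that the genotypes are alike.

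The series also holds WT and Double libraries at 6 months, 3 and 4, from cells sorted with a gate against leukocytes and endothelium and normalized separately. Signals were therefore not tested between the ages, and each age's own groups are set side by side. Of the 981 genes that rose at E18.5, 948 were measured at 6 months, where Double lay wholly above WT for 531 (56%) and wholly below for 49 (5.17%). Of the 1027 that fell, 985 were measured, and Double lay below for 608 (61.7%) and above for 43 (4.37%). Among all 13034 genes measured at both ages these shares were 23% above and 19.2% below, 42.1% together. Tff3 had 1.48, 2.85 and 1.16 in WT and 7.46, 7.41, 6.22 and 6.78 in Double at 6 months, and Sftpa1 19.74, 19.74 and 19.26 against 17.27, 18.25, 18.08 and 17.01. Mki67 had 8.1, 9.71 and 7.08 against 10.68, 10.37, 10.84 and 9.58, which overlap by 1 library of WT. Scgb1a1, which fell at E18.5, had 19.26, 18.44 and 20.24 in WT and 21.19, 19.74, 21.19 and 21.19 in Double, and these overlapped. Igf2, raised at E18.5, had 7.56, 7.9 and 7.89 against 7.46, 5.48, 7.24 and 7.68 at 6 months.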

How the data were processed

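The 22 libraries hold RNA of mouse lung epithelial cells, 12 from E18.5 and 10 from 6 months. The deposited values are log2 signals per Ensembl gene, made with STAR, limma and the mm9 build per the submitters' processing notes. For versions, the counting step and the library kit, nothing is stated in the labels. That the authors quantile-normalized each age separately was read from the values, in which the libraries of an age have the same median, 9.9 at E18.5, and the same highest value, 19.62. The log2 values were used as deposited.

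One limma model (version 3.58.1, R 4.3.3) covered the 12 E18.5 libraries, with genotype as the factor, empirical Bayes moderation and a mean-variance trend, and p-values were adjusted by Benjamini-Hochberg over 13750 genes. Fold changes are 2 to the power of the difference in means. On simulated data with 13750 genes the fit recovered 62 of 100 genes changed by 1 (log2) and 84 of 100 changed by 2, and called 9 unchanged genes. That simulation changed far fewer genes than the 2008 that passed here, all with a mean of at least 5. Its noise was independent between genes and libraries, so it does not give the error rate of the calls here. Alternatives were the 6 libraries alone, a replicate block, no trend, a mean of at least 5, centring, array weights, depth and sex covariates, the libraries of female pattern alone, and each library left out. Same-numbered Double and Nkx libraries deviated together (r = 0.298, 0.504 and 0.18), which meets the rule for pairs in that comparison. The values given are of the fit without the block. For Double against Nkx the call was the same with the block. For Double against WT the block changed some calls, as given below.

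Members, gene lists and tests were chosen with earlier results of these data known, some of them after values were seen. Genes were named by rule: Nkx2-1 and its neighbourhood, the 15 genes per direction that changed most among those that passed with a mean of 5 or more, the 5 most abundant passing genes per direction, up to 6 passing members of each list by size of change (the surfactant, replication, mitosis and transcription factor lists in full), members at the lowest value in a whole group, and genes passing against Nkx; the text gives a selection of these and says where a gene was added. Promoter windows and sequences are from RefSeq (GRCm38.p6), which matched 10291 measured genes.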

Additional observations from a re-analysis of the deposited data

Results flagged for a closer look

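For 9 of the genes named here that passed at E18.5, all Double libraries lay on one side of all WT libraries at E18.5. At 6 months they lay on the other side. They are a selection: over the whole comparison, 49 genes that rose at E18.5 lay wholly below WT at 6 months. Another 43 that fell lay wholly above. The difference between the ages was not tested, since they were normalized separately, and the 2 ages differ in how the cells were enriched. Apob fell by 2.35 at E18.5 and was 6.07 higher in Double at 6 months, where WT had 5.89 to 7.31 and Double 12.03 to 13.79. The tissue factor gene F3 had -0.97 and 1.96, and Elf5 had -0.58 and 0.71. In the other direction the mesothelial gene Upk3b had 3.24 at E18.5 and -3.21 at 6 months. The IGF-binding genes Igfbp4 and Igfbp3 had 1.79 and 1.6 at E18.5 and -3.1 and -2.44 at 6 months. Wif1 had 1.42 and -1.33, Egr2 had 1.41 and -1.19, and Ptch1 had 0.62 and -0.64. All E18.5 groups hold 3 libraries, so no library was tested as standing apart from its group.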

How the results depend on the processing

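Double against WT gave 2008 genes, 981 that rose and 1027 that fell. On the 6 libraries alone there were 928 (453 and 475), and in the libraries of female pattern alone 84 (57 and 27). With array weights, whose estimation gave convergence warnings, there were 6396 (3331 and 3065). Leaving out each library in turn gave 1182 to 2691 genes, 584 to 1408 that rose and 598 to 1283 that fell. Without the trend, with the filter, centring or a covariate, counts were within 1.5 times. Similar counts can hold different genes: the depth covariate kept 1409 of the 2008 calls (70.2%) and the sex covariate 1765 (87.9%). The fit of the 6 libraries alone kept 921 (45.9%). Of the same 2008 calls, 57.8% were kept without WT replicate 1, 70.3% without WT replicate 2 and 86.5% without WT replicate 3. The shares were 78.7%, 58.8% and 63.8% without Double replicates 1, 2 and 3. Named genes were mostly chosen as large changes that passed, so they are not a sample of all calls. Of the 153 named genes that passed, 132 kept their call with each of the 6 libraries left out in turn and 0 reversed. The depth covariate ended 8 of these calls (Igfbp3, Igfbp4, Pgc, Abca3, Plac8, Epcam, Cd14 and mt-Rnr2), the sex covariate 2 (Abca3 and Epcam) and the female libraries 121. Nkx2-1 changed sign without WT replicate 1 (-0.07) and in the female libraries (-0.12), had 0.15 without WT replicate 3, and passed with array weights (0.34). Double against Nkx gave 1 gene, which rose, and 3 on its own 6 libraries alone (2 rose, 1 fell) and 26 with array weights (17 and 9). Leaving out a library there gave 0 to 1 genes. The cause of these moves was not tested, beyond the fewer libraries of some fits. With the replicate number as a block, Double against WT gave 2155 genes, 1031 that rose and 1124 that fell, and Double against Nkx gave 1. Same-numbered Double and WT libraries correlated at -0.195, 0.454 and 0.06, so they were not taken as pairs, and not every library correlated best with its own number. Among named genes the block ended the call of Epcam, and Mbip and Gata6 passed with it. Read depth is unknown, so low signals carry an error that cannot be given.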
